A study of Rattus norvegicus with 9 samples.

Results

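The genes described here encode the subunits of the transcription machinery: the RNA polymerases, the general transcription factors, the TBP-associated factors (TAFs) and the Mediator complex. A gene was a member when its probe set carried a single gene symbol that began with Polr, with Gtf and a digit, or with Taf or Med and a number. This gave 85 genes of the 14324 genes with a symbol, and a gene with several probe sets was represented by the brightest. Of these members, 27 encode polymerase subunits, 19 general factors, 15 TAFs and 23 Mediator subunits, and Polr1has has no place in these complexes. No measured value entered the rule beyond the choice of the brightest probe set, which mattered for Taf15 alone. RefSeq lists 109 rat protein-coding genes with such symbols. The other 24, among them the largest subunits of RNA polymerases II and III (Polr2a, Polr3a), Taf1 and Med12, were not analysed here.

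Rat aortic smooth muscle cells, bought as a primary culture and made quiescent in low serum, were kept for 6 hr in K+-free DMEM, in DMEM with 3 mM ouabain or in control DMEM. Both treatments inhibit the Na+,K+-ATPase, ouabain by binding the pump and K+-free medium by taking away the ion that it carries inward, and the comparison asks how the transcriptome follows. Each condition has 3 Affymetrix Rat Gene 1.0 ST arrays from independent experiments, and the cells of all conditions were washed in K+-free medium before incubation. Both treatments were set against the same 3 control arrays, so their changes are given side by side and their likeness was not tested.

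In eukaryotic nuclei, RNA polymerase I makes the large ribosomal RNA precursor, RNA polymerase II makes messenger RNA, and RNA polymerase III makes transfer RNA, 5S ribosomal RNA and other short RNAs. RNA polymerase II starts at promoters together with the factors TFIIA, TFIIB, TFIID, TFIIE, TFIIF and TFIIH, of which TFIID holds TBP and most TAFs, whereas TFIIIC serves RNA polymerase III and SL1 serves RNA polymerase I. Mediator is a large complex of head, middle, tail and kinase modules that links activators bound to DNA with RNA polymerase II. The roles given below are those known from mammalian and yeast complexes.

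Values are log2 signals on the RMA scale, on which 1 unit is a doubling. Array medians lay between 6.76 and 6.8, and replicates correlated at 0.996 or more. A gene was called when limma, fitted over all 27342 probe sets, gave a Benjamini-Hochberg adjusted p under 0.05 and the fold exceeded 1.2. The replicate SD of the members had a median of 0.0740 in K+-free medium, 0.0744 in ouabain and 0.0459 in control, and their median signal was 9.26, against 7.45 over all genes. The SE of a change, the same for the 3 contrasts of a gene, had a median of 0.0660 over the members. Of the smooth muscle markers, 3 of 9 fell in K+-free medium and 6 of 9 in ouabain, and the mean signal of the list was 10.21 to 10.25 in K+-free medium, 10.09 to 10.19 in ouabain and 10.52 to 10.56 in control. These falls are 33.3% and 66.7% of the list, where 35.5% and 33.0% of genes of mean signal 8 or more fell. The endothelial list averaged 5.85 to 5.90 in K+-free medium, 5.87 to 5.91 in ouabain and 5.81 to 5.87 in control. The fibroblast list averaged 11.16 to 11.21 in K+-free medium, 10.85 to 10.95 in ouabain and 10.82 to 10.91 in control, with Pdgfra higher by 1.30 in K+-free medium. The macrophage list averaged 6.31 to 6.4 in K+-free medium, 6.49 to 6.51 in ouabain and 5.98 to 6.04 in control. In this list Cd68, Csf1r and Cd14 rose in both treatments, whereas Ptprc, Adgre1, Itgam and Lyz2 stayed below 6 on all 9 arrays. The part of these marker shifts in the results below was not tested. Signals come from whole cultures, so fewer cells with a transcript and less of it per cell cannot be told apart. With 3 arrays against 3 an exact permutation test of a single gene cannot go below p = 0.1, and the number of arrays limits the precision.

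In K+-free medium, 16 of the 85 members rose and 38 fell, and in ouabain 20 rose and 31 fell. Over all genes, 17.8% rose and 24.0% fell in K+-free medium, and 17.5% rose and 22.7% fell in ouabain, against 18.8% and 44.7% of the members in K+-free medium and 23.5% and 36.5% in ouabain. Bright genes are called more often, and among the 6404 genes with a mean signal of at least 8, a limit chosen after the values were seen, 25.5% rose and 35.5% fell in K+-free medium, with 25.0% and 33.0% in ouabain. The 70 members above that limit had 21.4% rises and 44.3% falls in K+-free medium and 25.7% and 34.3% in ouabain. Of the 15 members under it, 1 rose and 7 fell in K+-free medium and 2 rose and 7 fell in ouabain. Those 7 are 46.7% of the dim members in each treatment, where 14.6% of the 7920 dim genes fell in K+-free medium and 14.3% in ouabain. The split uses the mean of all 9 arrays, so a fall can itself move a gene under 8. Gtf2e1, which fell in ouabain, is an example (8.39 in control, 7.92 over all arrays). Signals within the dim group were not matched either, so an excess of falls among dim members cannot be read from these shares. The median change of the members was -0.12 in K+-free medium and -0.06 in ouabain, where the median of all genes was 0.05 in K+-free medium and 0.06 in ouabain. The counts by class and complex below are to be read beside the shares of all genes and of bright genes, and many complexes have few genes.

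The calls of both treatments fell into few patterns. Both treatments lowered 26 members and raised 14, K+-free medium alone lowered 12 and raised 2, ouabain alone lowered 5 and raised 6, and 20 were called in neither. No member was called in opposite directions. These patterns were not counted over all genes, and both treatments share the control arrays, so they are not shown to be particular to the members. The paper reports a positive correlation between the treatments over its differentially expressed transcripts. The falls were also the larger changes: 10 members fell to a log2 change of -1 or beyond in K+-free medium and 10 in ouabain, and Polr1a in K+-free medium was the only member to rise that far. Changes of this size were not counted over all genes, so larger falls than rises are not shown to be particular to the members. Centring on B2m, the reference gene of the study's RT-PCR, leaves 10 rises and 45 falls in K+-free medium and 13 rises and 36 falls in ouabain. Quantile-normalizing the deposited values once more (repeated quantile normalization) leaves 18 rises and 34 falls in K+-free medium and 22 rises and 26 falls in ouabain. The genes whose calls it changes are named below.

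**Figure D1:**
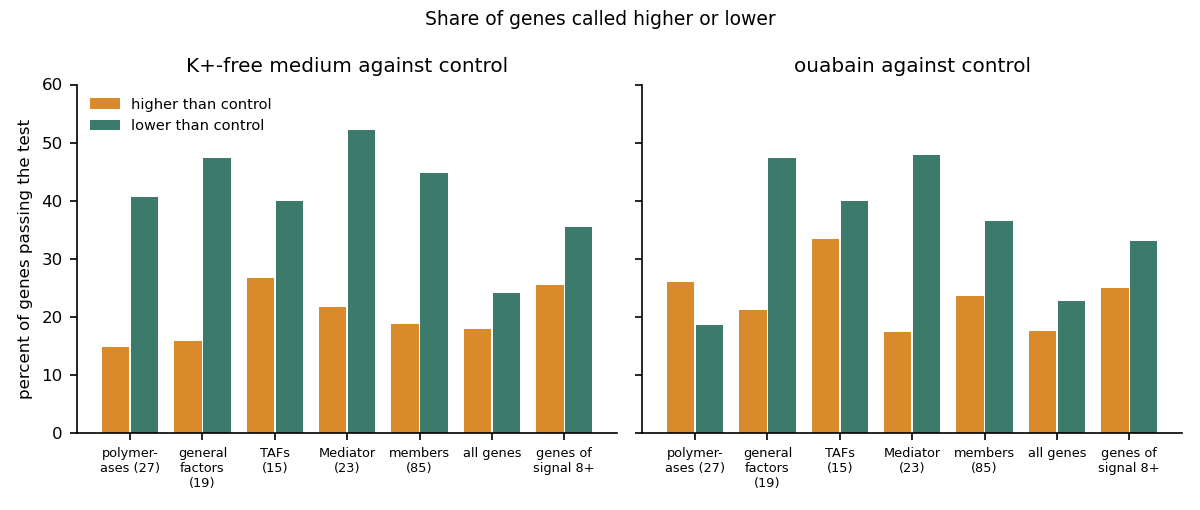
Percent of genes called higher (left bar) or lower (right bar) than control in each class of members, with the number of genes in brackets, in all members, in all genes and in genes of mean signal 8 or more; K+-free medium is on the left and ouabain on the right. Mediator has the highest share of falls in both panels, 52.2% in K+-free medium and 47.8% in ouabain, and general factors have 47.4% in each. RNA polymerases have 40.7% falls in K+-free medium but 18.5% in ouabain.

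The promoters of the members with the largest fall and rise in each treatment and with the largest difference between treatments are printed to show what sequence lies at genes at both ends of the range. They run from 250 bases before to 50 bases after the start given by RefSeq (GRCr8), in lower case, with matches on either strand in capitals. The motifs marked are the GC box, written GGGCGG, the CCAAT box, and the E-box, written CACGTG.
Gtf2a1, chr6:116252171-116252470, minus strand: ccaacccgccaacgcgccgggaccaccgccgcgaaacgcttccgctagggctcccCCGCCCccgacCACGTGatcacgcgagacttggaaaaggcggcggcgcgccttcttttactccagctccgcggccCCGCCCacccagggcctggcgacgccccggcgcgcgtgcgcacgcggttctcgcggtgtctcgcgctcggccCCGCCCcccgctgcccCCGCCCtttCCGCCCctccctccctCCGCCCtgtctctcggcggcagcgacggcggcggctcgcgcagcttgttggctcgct
Med11, chr10:55662706-55663005, plus strand: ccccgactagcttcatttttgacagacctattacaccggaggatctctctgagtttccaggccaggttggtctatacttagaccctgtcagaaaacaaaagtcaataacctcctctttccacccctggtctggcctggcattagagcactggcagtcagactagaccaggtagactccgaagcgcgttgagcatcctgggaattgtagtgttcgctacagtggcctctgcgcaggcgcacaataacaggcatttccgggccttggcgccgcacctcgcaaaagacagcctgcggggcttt
Taf6l, chr1:215113748-215114047, minus strand: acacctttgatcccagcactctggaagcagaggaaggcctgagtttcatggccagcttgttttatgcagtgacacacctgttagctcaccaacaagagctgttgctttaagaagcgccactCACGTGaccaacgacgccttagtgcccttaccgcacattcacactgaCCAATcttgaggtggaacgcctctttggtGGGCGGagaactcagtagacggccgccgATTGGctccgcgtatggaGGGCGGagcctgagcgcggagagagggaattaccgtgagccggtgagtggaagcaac
Polr1a, chr4:105508055-105508354, plus strand: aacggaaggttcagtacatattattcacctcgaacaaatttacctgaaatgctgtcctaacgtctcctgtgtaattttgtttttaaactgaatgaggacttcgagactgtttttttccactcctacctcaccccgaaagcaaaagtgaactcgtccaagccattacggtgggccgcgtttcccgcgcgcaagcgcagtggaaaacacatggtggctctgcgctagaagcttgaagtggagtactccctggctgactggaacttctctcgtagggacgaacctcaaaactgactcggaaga
Gtf2h1, chr1:106457442-106457741, plus strand: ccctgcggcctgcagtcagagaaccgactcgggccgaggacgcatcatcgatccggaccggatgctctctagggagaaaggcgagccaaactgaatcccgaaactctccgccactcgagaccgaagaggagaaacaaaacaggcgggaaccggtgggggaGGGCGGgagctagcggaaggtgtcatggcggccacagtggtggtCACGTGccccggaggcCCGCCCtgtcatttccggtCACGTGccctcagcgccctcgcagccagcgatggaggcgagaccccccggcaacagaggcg
Gtf2a1, which fell most in ouabain, holds 6 GC boxes and 1 E-box, whereas Med11, which fell most in K+-free medium, holds none of these motifs. Taf6l has 2 GC boxes, 2 CCAAT boxes and 1 E-box. Polr1a, with the largest rise in K+-free medium, has none, and Gtf2h1, with the largest rise in ouabain, has 2 GC boxes and 2 E-boxes. Genes that fell and genes that rose thus each include promoters with and without these letters.

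A promoter was on hand for 73 of the 85 members. GC boxes stood in 67.1% of them, against 50.2% of the promoters of genes measured here and 34.9% of all 27457 promoters in the table. The E-box stood in 20.5% of the members' promoters, against 7.89% and 6.65%, and the ETS motif (CCGGAAG) in 31.5%, against 13.0% and 9.22%. The CRE (TGACGTCA) was found in 8.22% of the members, against 2.45% and 1.91%. The shorter letters of hypoxia response elements (ACGTG or GCGTG, the first of which lies within every E-box) stood in 74.0%, against 52.1% and 42.9%. CCAAT boxes were as frequent in members (38.4%) as in genes measured here (38.3%), and stood in 37.7% of all promoters, while TATAAA was found in 9.59%, against 11.8% and 14.3%. Between members that rose in both treatments and those that fell in both, CCAAT was in 0 of 11 and 11 of 23 promoters, and the E-box in 2 of 11 and 5 of 23. GC boxes were in 7 of 11 and 15 of 23, the ETS motif in 3 and 5, and the CRE in 2 and 3. The gap for CCAAT was the widest among the motifs counted, rests on few promoters and was not tested. All matches were counted on both strands and are letters in a window, with no binding measured.

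RNA polymerase I subunits rose more often than they fell. Polr1a, the largest and catalytic subunit, had log2 signals of 9.66, 9.71 and 9.78 in K+-free medium, 9.29, 9.29 and 9.17 in ouabain and 8.63, 8.59 and 8.50 in control. The 3 conditions did not overlap, and the gene rose by 1.14 in K+-free medium and by 0.68 in ouabain (SE 0.06; limma adjusted p = 4.37e-08 in K+-free medium and 2.94e-06 in ouabain). Polr1e, which forms a heterodimer with Polr1g on the side of the enzyme, rose by 0.63 in K+-free medium and 0.45 in ouabain. Polr1g was called in ouabain alone, at 0.44, with 0.19 in K+-free medium, and repeated quantile normalization turned that value into a called 0.39. Polr1h, which helps the enzyme to cleave its RNA, rose by 0.40 in K+-free medium and 0.34 in ouabain. With B2m centring those values were 0.24 in K+-free medium and 0.19 in ouabain and were not called. Polr1f, the stalk subunit, was at -0.02 in K+-free medium and -0.10 in ouabain and was not called. The exception was Polr1b, the second-largest subunit, which read 9.39, 9.33 and 9.16 in K+-free medium, 9.78, 9.81 and 9.78 in ouabain and 9.67, 9.72 and 9.66 in control. It fell by 0.39 in K+-free medium only, so the pair that forms the active centre moved in opposite directions there. In all, 3 of the 6 subunits rose and 1 fell in K+-free medium, and 4 rose in ouabain. These rises are 50% and 66.7% of few genes. Rises made up 25.5% of genes of mean signal 8 or more in K+-free medium and 25.0% in ouabain.

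RNA polymerase III subunits fell, mainly in K+-free medium, where 6 of 8 fell and none rose, with a median change of -0.59. In ouabain 3 fell and 1 rose, with a median of -0.14. Falls made up 35.5% of genes of mean signal 8 or more in K+-free medium and 33.0% in ouabain, and 24.0% and 22.7% of all genes. The falls in ouabain (37.5%) are thus near the share of bright genes, and those in K+-free medium are 75%. Polr3k, which acts in RNA cleavage and termination, gave 8.07, 8.21 and 7.97 in K+-free medium, 8.46, 8.64 and 8.37 in ouabain and 9.06, 9.12 and 9.10 in control. Its 3 conditions were separate, and its changes were -1.01 in K+-free medium and -0.60 in ouabain. Polr3c, Polr3f and either Polr3g or Polr3gl form the subcomplex needed to start transcription. Polr3c fell in both treatments, by 1.09 in K+-free medium and 0.97 in ouabain. Polr3g read 6.23, 6.24 and 6.51 in K+-free medium, 6.65, 6.91 and 7.12 in ouabain and 7.35, 7.4 and 7.38 in control. Polr3g thus fell by 1.05 in K+-free medium and 0.49 in ouabain, while its paralog Polr3gl fell by 0.32 in K+-free medium, a call that repeated quantile normalization ended (-0.16), and was at -0.18 in ouabain, which B2m centring made a called -0.33. Polr3f fell by 0.50 in K+-free medium, with -0.05 in ouabain.

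Polr3e, which pairs with Polr3d in a module that resembles TFIIF, read 8.71, 8.59 and 8.64 in K+-free medium, 9.24, 9.22 and 9.15 in ouabain and 9.37, 9.33 and 9.24 in control. The ouabain and control arrays overlapped, and the gene fell in K+-free medium alone (-0.67, with -0.11 in ouabain). Polr3d itself was at -0.12 in K+-free medium and -0.06 in ouabain, not called, and B2m centring gave a called -0.28 in K+-free medium. Polr3b, the second-largest subunit, was the member of the group to rise, by 0.32 in ouabain, with 0.13 in K+-free medium. That rise was 0.17 and not called when arrays were centred on B2m.

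Of the 5 subunits shared between polymerases, 2 fell and none rose in K+-free medium, and 2 rose and none fell in ouabain. Both counts are 40% of few genes. Of genes of mean signal 8 or more, 35.5% fell in K+-free medium and 25.0% rose in ouabain. Polr1c and Polr1d form the assembly dimer common to RNA polymerases I and III. Polr1c read 9.12, 9.01 and 8.86 in K+-free medium, 9.53, 9.72 and 9.41 in ouabain and 9.07, 9.16 and 9.09 in control, and rose by 0.45 in ouabain, with -0.11 in K+-free medium (a called -0.27 with B2m centring). Polr1d fell by 0.30 in K+-free medium and was at 0.17 in ouabain. Polr2h, found in all nuclear polymerases, had 10.21, 10.14 and 10.13 in K+-free medium, 10.76, 10.68 and 10.68 in ouabain and 10.09, 10.15 and 10.16 in control. It rose by 0.57 in ouabain alone, where K+-free medium gave 0.03. Polr2e was called lower in K+-free medium (-0.28, with -0.02 in ouabain), and this call was lost without any 1 of control replicates 1, 2 and 3, ouabain replicate 1 and K+-free replicates 1 and 3, at -0.21 to -0.32, and after repeated quantile normalization (-0.25). Polr2f was at 0.23 in K+-free medium and 0.14 in ouabain, not called, and the K+-free value was called without K+-free replicate 2 (0.27).

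Of the 6 subunits of RNA polymerase II, 2 fell in each treatment and none rose. These falls are 33.3%, near the 35.5% in K+-free medium and 33.0% in ouabain among genes of mean signal 8 or more. Polr2i fell in both, by 0.66 in K+-free medium and 0.41 in ouabain, and the ouabain call was lost with repeated quantile normalization (-0.22). Polr2c and Polr2j form the assembly dimer of this enzyme: Polr2c fell in K+-free medium (-0.28, with 0.10 in ouabain), and Polr2j in ouabain (-0.42, with -0.25 in K+-free medium). The fall of Polr2c was -0.25 and not called without K+-free replicate 1 or after repeated quantile normalization, while Polr2j in K+-free medium was called with B2m centring (-0.41), repeated quantile normalization (-0.32) or centring on reference genes (-0.32), and without control replicate 3 (-0.27) or K+-free replicate 1 (-0.29). The second-largest subunit Polr2b was at -0.12 in K+-free medium and 0.00 in ouabain, and the stalk subunits Polr2d and Polr2g lay between 0.10 and 0.21, all not called. B2m centring made Polr2b a called -0.28 in K+-free medium, and repeated quantile normalization made Polr2g a called 0.29 in ouabain. Polr2m, a protein that binds the enzyme and makes it depend on Mediator, rose in K+-free medium by 0.34, with -0.02 in ouabain. That rise was not called with B2m centring (0.18) or repeated quantile normalization (0.26). The mitochondrial enzyme Polrmt was at -0.22 in K+-free medium and -0.10 in ouabain, without a call, and B2m centring made the K+-free value a called -0.38 (-0.29 with centring on reference genes).

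**Figure D2:**
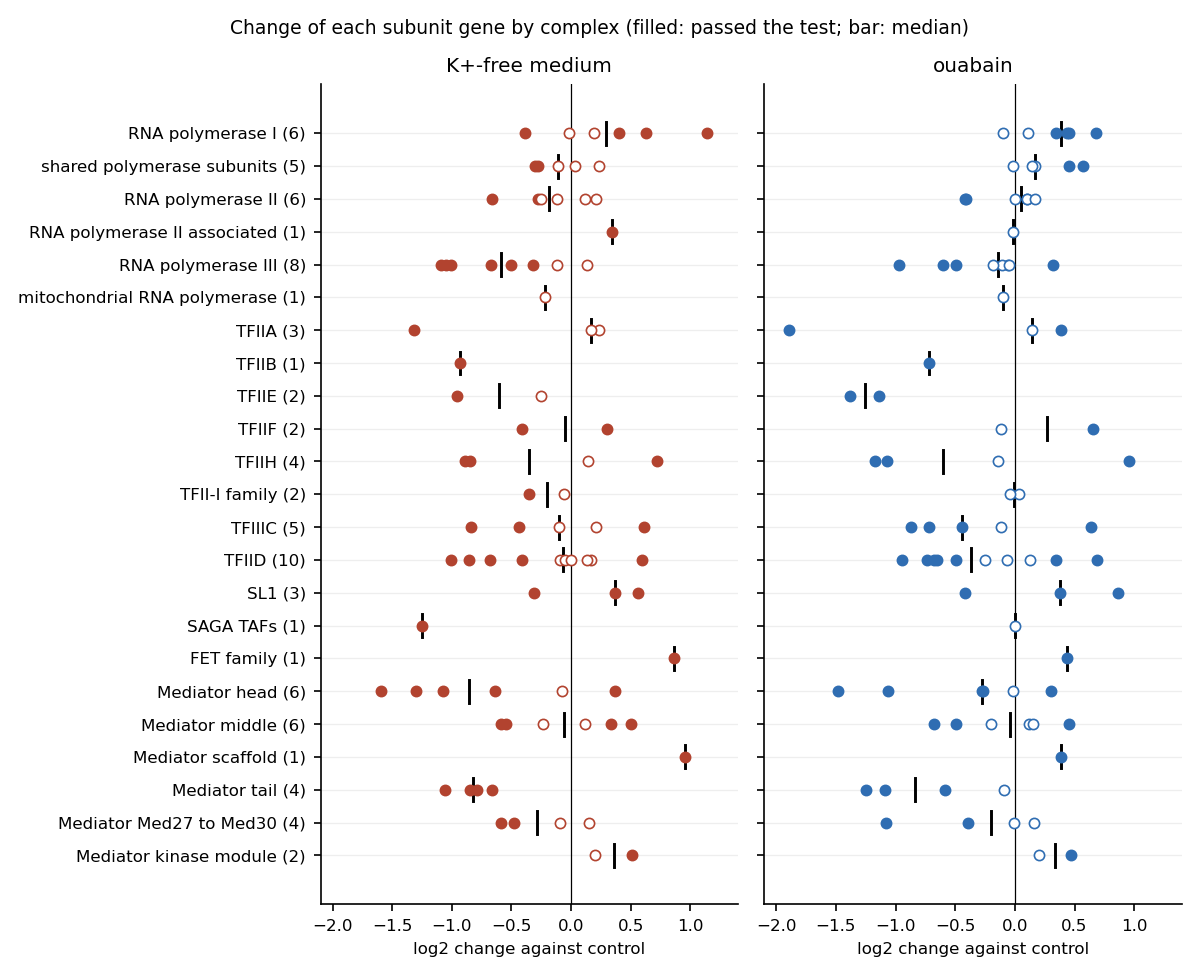
Log2 change against control of each member but Polr1has, by complex (number of genes in brackets), in K+-free medium (left) and ouabain (right); filled circles passed the test, open circles did not, and the black bar is the median of the complex. The 4 Mediator tail genes lie below 0 in both panels, RNA polymerase III shifts left in K+-free medium (median -0.59), and Gtf2a1 in TFIIA is the lowest point in ouabain (-1.89).

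Among the general factors, 3 of 19 rose and 9 fell in K+-free medium, and 4 rose and 9 fell in ouabain. The falls are 47.4% in each treatment, against 35.5% in K+-free medium and 33.0% in ouabain among genes of mean signal 8 or more. Gtf2a1 encodes the precursor that is cut into the large chains of TFIIA, which steadies TBP on DNA. It read 9.39, 9.30 and 9.37 in K+-free medium, 8.73, 8.73 and 8.87 in ouabain and 10.68, 10.68 and 10.66 in control. This was the deepest fall of any member in ouabain (-1.89, SE 0.06; limma adjusted p = 2.15e-09), with -1.32 in K+-free medium. The gene of the small chain, Gtf2a2, was at 0.17 in K+-free medium and 0.14 in ouabain and not called, with overlapping arrays, although the K+-free value was called without K+-free replicate 2 (0.32). Gtf2a1l, the germ-cell paralog of Gtf2a1, read 5.67 to 6.25 on the 9 arrays, below their medians. It was called higher in ouabain (0.39), but not with B2m centring (0.24), and in K+-free medium without control replicate 2 alone (0.28).

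Gtf2b, the gene of TFIIB, which bridges TBP and RNA polymerase II, fell by 0.93 in K+-free medium and 0.72 in ouabain. TFIIE brings TFIIH to the promoter. Gtf2e1, its large chain, read 8.27, 7.95 and 8.18 in K+-free medium, 7.30, 7.04 and 7.41 in ouabain and 8.39, 8.34 and 8.43 in control. It fell by 1.14 in ouabain, whereas its -0.25 in K+-free medium did not pass. That value was called without K+-free replicate 1 (-0.32) and with B2m centring (-0.41). Gtf2e2, the small chain, fell in both, by 0.96 in K+-free medium and 1.38 in ouabain.

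The core subunits of TFIIH, the helicase complex that opens promoters and repairs DNA, moved apart. Gtf2h1 read 11.13, 11.15 and 11.22 in K+-free medium, 11.37, 11.41 and 11.43 in ouabain and 10.43, 10.42 and 10.47 in control, a rise of 0.72 in K+-free medium and 0.96 in ouabain. Gtf2h3 read 8.14, 8.26 and 8.23 in K+-free medium, 7.80, 7.89 and 7.97 in ouabain and 9.02, 9.14 and 9.02 in control, a fall of 0.85 in K+-free medium and 1.17 in ouabain. Gtf2h4 fell by 0.89 in K+-free medium and 1.07 in ouabain, and the smallest subunit Gtf2h5 was at 0.14 in K+-free medium and -0.14 in ouabain (a called -0.29 with B2m centring). For the 3 called subunits no treated array overlapped with control. In TFIIF, which escorts RNA polymerase II to the promoter, Gtf2f1 rose by 0.30 in K+-free medium and 0.65 in ouabain, and the K+-free value was not called with centring on B2m (0.14) or on reference genes (0.23). Gtf2f2 was called lower in K+-free medium (-0.41), with arrays that overlapped control, and the call was lost without control replicate 2 (-0.32) or K+-free replicates 2 (-0.30) or 3 (-0.37), and after repeated quantile normalization (-0.28).

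TFIIIC binds the internal promoters of transfer RNA genes. Its DNA-binding subunit Gtf3c1 fell by 0.44 in both treatments, and Gtf3c3 by 0.84 in K+-free medium and 0.87 in ouabain. Gtf3c4 went the other way, with 9.58, 9.51 and 9.51 in K+-free medium, 9.53, 9.63 and 9.53 in ouabain and 9.05, 8.96 and 8.76 in control, a rise of 0.61 in K+-free medium and 0.64 in ouabain. Gtf3c6 read 9.85, 9.51 and 9.53 in K+-free medium, 9.11, 9.0 and 8.93 in ouabain and 9.62, 9.83 and 9.75 in control. Gtf3c6 thus fell in ouabain alone (-0.72, with -0.10 in K+-free medium). Gtf3c5 was not called against control, at 0.21 in K+-free medium and -0.12 in ouabain, but repeated quantile normalization gave a called rise in K+-free medium (0.32) and B2m centring a called fall in ouabain (-0.27). Of the TFII-I family, whose founding protein binds initiator elements and E-boxes, Gtf2i fell by 0.35 in K+-free medium alone (0.03 in ouabain), and its relative Gtf2ird1 was at -0.06 in K+-free medium and -0.04 in ouabain.

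Of the 15 TAF genes, 4 rose and 6 fell in K+-free medium, and 5 rose and 6 fell in ouabain. These are 26.7% and 40% of the TAFs in K+-free medium and 33.3% and 40% in ouabain. They lie near the shares of genes of mean signal 8 or more, 25.5% and 35.5% in K+-free medium and 25.0% and 33.0% in ouabain. Taf5, Taf9b, Taf11 and Taf7l lay under that limit, so bright genes do not match the whole class. Over all genes the shares were 17.8% and 24.0% in K+-free medium and 17.5% and 22.7% in ouabain. Taf6l, a subunit of the SAGA histone acetyltransferase complex, showed the largest difference between the treatments of all members. It read 7.92, 7.69 and 7.79 in K+-free medium, 8.98, 9.13 and 9.03 in ouabain and 9.05, 9.11 and 8.98 in control. The ouabain and control arrays interleaved, and the change was -1.25 in K+-free medium and 0.00 in ouabain (SE 0.07). Its TFIID paralog Taf6 fell in both, with 9.69, 9.56 and 9.65 in K+-free medium, 9.47, 9.61 and 9.55 in ouabain and 10.52, 10.45 and 10.51 in control. Its changes were -0.86 in K+-free medium and -0.95 in ouabain. The difference between paralogs was not tested.

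Within TFIID, Taf5, a scaffold with WD repeats, was the gene to rise in both treatments (0.59 in K+-free medium and 0.69 in ouabain). Taf9b, a paralog of the histone-fold protein Taf9, fell by 1.01 in K+-free medium and 0.74 in ouabain. Taf10, shared by TFIID and SAGA, fell by 0.68 in K+-free medium and 0.65 in ouabain. Taf13 and Taf11 pair through histone folds: Taf13 fell by 0.41 in K+-free medium and 0.68 in ouabain, and Taf11 fell in ouabain alone (-0.49, with -0.09 in K+-free medium). Taf11 read 6.00 to 6.63 on the 9 arrays, below their medians. Taf7, which restrains the acetyltransferase activity of Taf1, rose in ouabain alone, at 0.34 with 0.00 in K+-free medium, and with B2m centring that rise was 0.19 and not called. Taf2, which contacts the initiator, was at -0.05 in K+-free medium and -0.25 in ouabain, and the ouabain value became a called -0.40 with B2m centring, -0.30 with centring on reference genes, -0.29 without control replicate 3 and -0.27 without ouabain replicate 1. Taf8, the partner of Taf10, was not called as deposited, and repeated quantile normalization gave a called 0.30 in K+-free medium. Taf7l, a germ-cell paralog read at 5.67 to 6.14, was called only without K+-free replicate 3, in K+-free medium (0.28).

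The SL1 genes serve RNA polymerase I. Taf1d had 12.44, 12.20 and 12.41 in K+-free medium, 12.70, 12.36 and 12.88 in ouabain and 11.77, 11.81 and 11.78 in control, and rose by 0.56 in K+-free medium and 0.86 in ouabain. Taf1a rose by 0.37 in K+-free medium and 0.38 in ouabain. With B2m centring it was at 0.21 in K+-free medium and 0.23 in ouabain and not called. Taf1c fell by 0.31 in K+-free medium and 0.42 in ouabain. After repeated quantile normalization Taf1c was at -0.11 in K+-free medium and -0.20 in ouabain and was not called. Taf15, an RNA-binding protein of the FET family that joins some TFIID, read 11.54, 11.66 and 11.64 in K+-free medium, 11.22, 11.23 and 11.14 in ouabain and 10.73, 10.76 and 10.78 in control. It rose by 0.86 in K+-free medium and 0.44 in ouabain, and its other probe set gave 0.76 in K+-free medium and 0.50 in ouabain.

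Mediator had the highest share of falls among the classes: 12 of 23 genes fell and 5 rose in K+-free medium, and 11 fell and 4 rose in ouabain. In ouabain Mediator (47.8%) and the general factors (47.4%) were nearly level. Among genes of mean signal 8 or more, 35.5% fell in K+-free medium and 33.0% in ouabain. The median change of Mediator was -0.48 in K+-free medium and -0.20 in ouabain, and its ouabain median was -0.10 after repeated quantile normalization and -0.36 with B2m centring. The general factors were at -0.21 in ouabain after repeated quantile normalization, so the order of these classes in ouabain is not settled. In the head, which contacts RNA polymerase II, 4 of 6 genes fell in each treatment. Med11 read 7.72, 7.85 and 7.66 in K+-free medium, 7.83, 8.04 and 7.68 in ouabain and 9.31, 9.45 and 9.23 in control. With -1.59 in K+-free medium and -1.48 in ouabain it was the deepest fall of any member in K+-free medium (SE 0.09; limma adjusted p = 1.14e-07 there). Med22, which pairs with Med11, read 7.78, 7.83 and 7.67 in K+-free medium, 8.55, 8.61 and 8.51 in ouabain and 8.81, 8.86 and 8.82 in control. It fell by 1.07 in K+-free medium and by 0.27 in ouabain, the ouabain call being lost without control replicate 2 (-0.26) or ouabain replicate 3 (-0.25) and after repeated quantile normalization (-0.07) or centring on array medians (-0.26). Med8 fell by 1.30 in K+-free medium and 1.06 in ouabain.

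Med6 fell by 0.64 in K+-free medium and 0.28 in ouabain, and the fall in ouabain was lost without ouabain replicate 1 (-0.24) or 2 (-0.26) and after repeated quantile normalization (-0.10). Med20 rose by 0.37 in K+-free medium and 0.30 in ouabain, and the rise in ouabain was lost without control replicate 1 (0.26) or ouabain replicates 1 or 3 (0.28 each), and with centring on reference genes (0.25). With B2m centring Med20 was at 0.21 in K+-free medium and 0.15 in ouabain, not called. Med17, the scaffold of the head, was at -0.08 in K+-free medium and -0.02 in ouabain.

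The tail, where many activators bind, fell as a whole in K+-free medium (4 of 4 genes) and in 3 of 4 genes in ouabain. These are few genes, set against falls in 35.5% of genes of mean signal 8 or more in K+-free medium and 33.0% in ouabain. Med16 read 8.90, 8.97 and 8.88 in K+-free medium, 8.83, 9.0 and 8.83 in ouabain and 9.97, 10.0 and 9.96 in control, a fall of 1.06 in K+-free medium and 1.09 in ouabain. Med24 fell by 0.85 in K+-free medium and 1.25 in ouabain, and Med23, which receives signals through MAP kinase and Elk1, by 0.66 in K+-free medium and 0.59 in ouabain. Med15, a partner of the sterol regulator SREBP, had 10.0, 9.94 and 9.97 in K+-free medium, 10.61, 10.78 and 10.61 in ouabain and 10.74, 10.77 and 10.76 in control. Its fall of 0.79 was seen in K+-free medium alone, and the ouabain arrays overlapped control (-0.09).

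The backbone subunit Med14, on which the modules are built, rose. It read 10.39, 10.27 and 10.66 in K+-free medium, 9.87, 9.68 and 10.09 in ouabain and 9.48, 9.55 and 9.44 in control. Its rise was 0.95 in K+-free medium and 0.39 in ouabain, and the ouabain call was lost without control replicate 3 (0.36) or ouabain replicate 3 (0.28), and with centring on B2m (0.23) or reference genes (0.34). Med1, which binds nuclear receptors, rose by 0.50 in K+-free medium and 0.45 in ouabain, and Med13, which docks the kinase module, by 0.51 in K+-free medium and 0.47 in ouabain. On the 9 arrays Med1 lay between 12.07 and 12.19 in the treated cells and between 11.64 and 11.70 in control. Med12l, the other kinase module gene measured, read 5.87 to 6.18 and was not called.

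In the middle module, Med21 fell by 0.55 in K+-free medium and 0.49 in ouabain, and Med31 by 0.59 in K+-free medium and 0.68 in ouabain. Med4 rose by 0.33 in K+-free medium, which was 0.26 and not called without K+-free replicate 1 and 0.17 with B2m centring. In ouabain it was at 0.15, and repeated quantile normalization made this a called 0.35. Med10 was at -0.24 in K+-free medium and -0.20 in ouabain, which B2m centring turned into called falls of -0.39 in K+-free medium and -0.36 in ouabain, and Med19 was at 0.12 in both treatments, called without control replicate 1 alone (0.26 in K+-free medium and 0.27 in ouabain). Of the subunits Med27 to Med30, found in animals between head and tail, Med30 fell by 0.59 in K+-free medium and 1.08 in ouabain, Med29 fell in K+-free medium alone (-0.48, with -0.01 in ouabain), and Med27 fell in ouabain alone (-0.39, with -0.09 in K+-free medium). Repeated quantile normalization left Med27 at -0.19 in ouabain, without a call. Med28 was at 0.15 in K+-free medium and 0.16 in ouabain, not called.

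**Figure D3:**
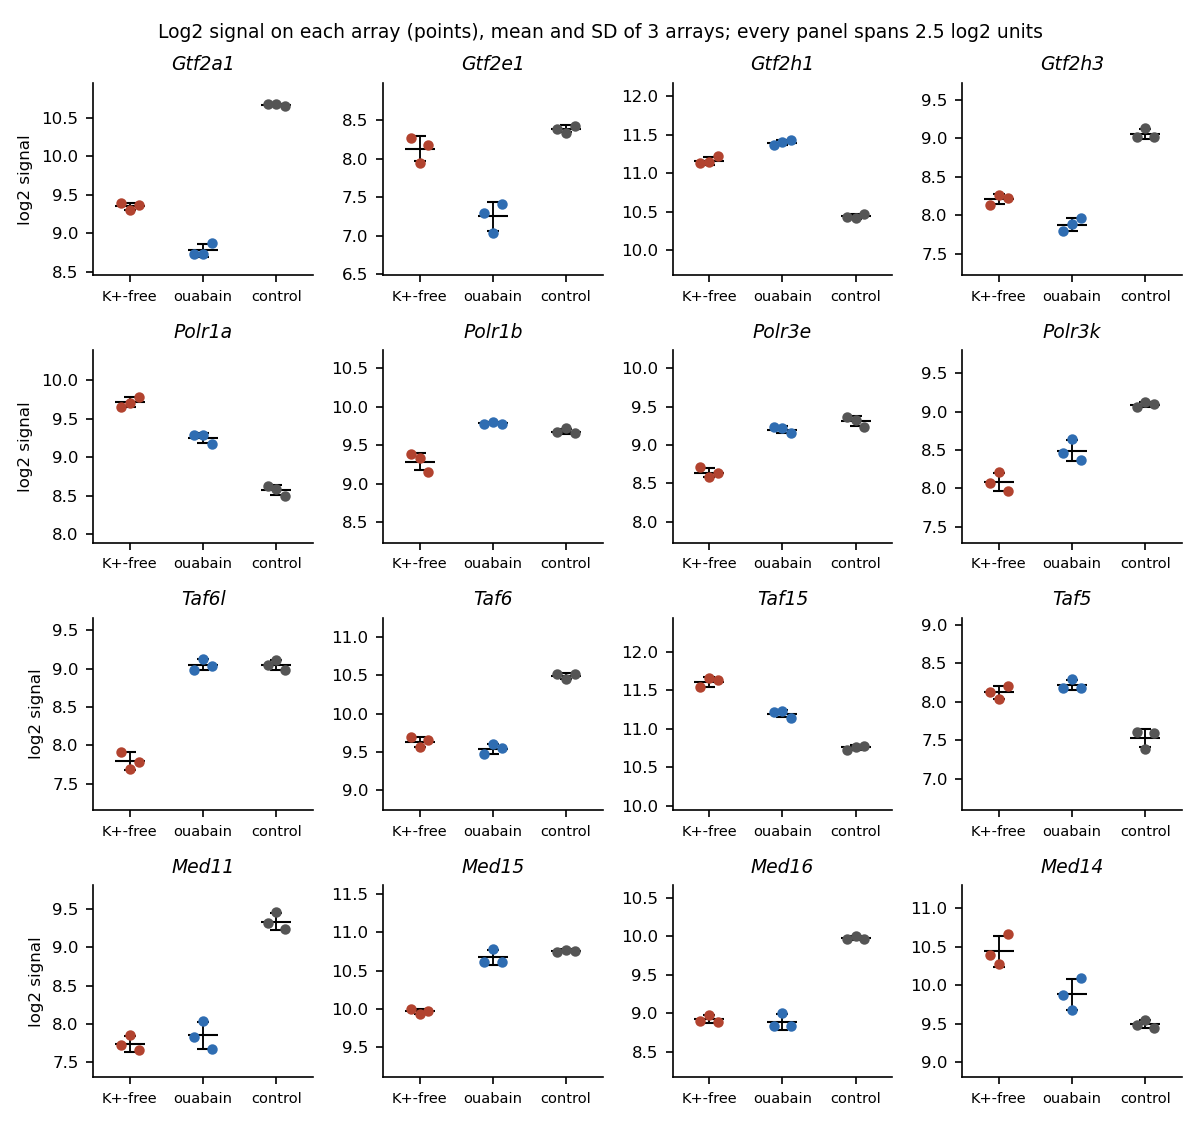
Log2 signal of 16 members on each array (points), with the mean and SD of 3 arrays per condition, in K+-free medium, ouabain and control from left to right; each panel spans 2.5 log2 units. Taf6l, Med15 and Polr3e are low in K+-free medium alone, Gtf2e1 is low in ouabain, and Gtf2a1, Gtf2h3, Taf6, Med11 and Med16 are low in both.

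Tested directly, 33 of the 85 members differed between the treatments: in K+-free medium 16 had the higher and 17 the lower signal, where 10.9% of all genes were higher and 10.7% lower. Among genes of mean signal 8 or more these shares were 17.9% and 18.1%, and among the 70 members above that limit 20% and 22.9%. Of the members called in 1 treatment alone, 9 of the 12 lowered by K+-free medium and 1 of the 2 raised by it passed this direct test, as did 4 of the 5 lowered and 3 of the 6 raised by ouabain, so the others are not shown to differ. Of the polymerase genes, 9 were lower in K+-free medium and 2 higher, namely Polr1a and Polr2m, and all 8 RNA polymerase III genes had a difference below 0, of which 4 passed (Polr3e, Polr3f, Polr3g and Polr3k, -0.41 to -0.56). Polr1b (-0.50), Polr1c (-0.56), Polr1d (-0.48), Polr2h (-0.55) and Polr2c (-0.38) made up the rest. With the t-test of the study's methods and adjusted p-values, 19 of the 33 calls between treatments were kept. The 14 lost were Polr1c, Polr2c, Polr2m, Polr3f, Polr3g, Polr3k, Gtf2e2, Gtf2h5, Gtf3c5, Gtf3c6, Med6, Med14, Med27 and Taf11.

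Of the general factors, 7 were higher in K+-free medium and 2 lower. The 7 were Gtf2e1 (0.88), Gtf3c6 (0.61), Gtf2a1 (0.58), Gtf2e2 (0.41), Gtf2h3 (0.33), Gtf3c5 (0.33) and Gtf2h5 (0.29). Gtf2h5 lost its call without ouabain replicate 3 (0.23) or K+-free replicate 1 (0.24). Gtf2f1 (-0.35) and Gtf2i (-0.38) were lower. Whether the direction differed between classes was not itself tested.

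Taf6l (-1.25, limma adjusted p = 5.03e-07), Med22 (-0.80) and Med15 (-0.69) had the largest differences toward lower values in K+-free medium. Among the other TAF and Mediator genes, Med29 (-0.47), Med6 (-0.36) and Taf7 (-0.35) were lower. Higher in K+-free medium were Med14 (0.56), Med30 (0.49), Taf15 (0.41), Taf11 (0.40), Med24 (0.40), Med27 (0.30) and Taf13 (0.27). Med27 was not called without ouabain replicate 1 (0.22), nor Taf13 without K+-free replicate 1 (0.26) or 3 (0.25), after repeated quantile normalization (0.24) or with centring on reference genes (0.25). Med8 (-0.27) and Taf9b (-0.30) were added by repeated quantile normalization, and Polr1g (-0.27), Polr2e (-0.27) and Polr2i (-0.26) by centring on reference genes. With all 9 arrays as deposited, no gene of the middle module or of SL1 passed this test, and leaving out 1 array gave a call to Med4 (0.29, without K+-free replicate 2) and Taf1d (-0.44, without ouabain replicate 2). It did so too for Gtf2f2, Med8, Polr1g, Polr2e, Polr2i and Taf9b, at -0.43 to -0.27.

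**Figure D4:**
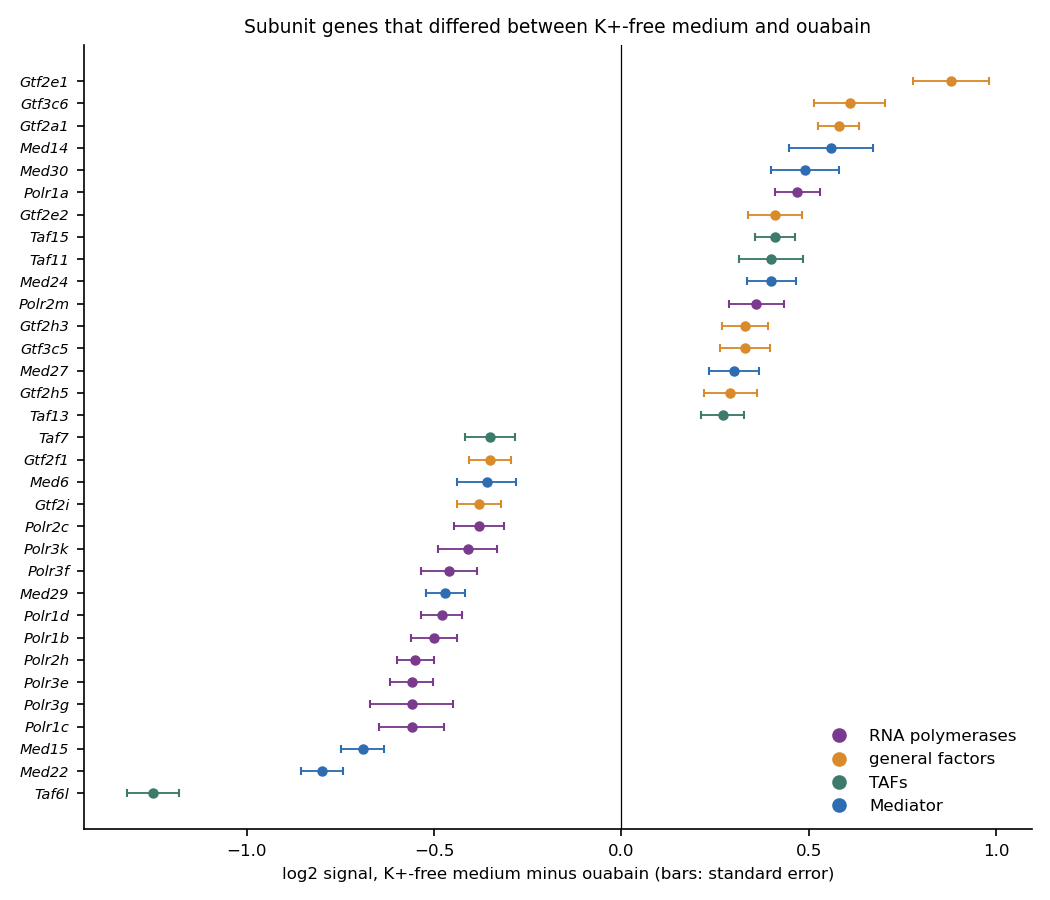
Difference in log2 signal, K+-free medium minus ouabain, for the 33 members that passed the test of that difference (points, with the standard error), coloured by class and ordered by value. Taf6l lies at -1.25 and Gtf2e1 at 0.88, and 9 of the 11 polymerase genes lie to the left of 0.

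Partner genes outside the symbol rule were taken from lists of known cofactors, 62 of which were measured. In K+-free medium 15 rose and 23 fell, and in ouabain 16 rose and 19 fell. These are 24.2% and 37.1% of the partners in K+-free medium and 25.8% and 30.6% in ouabain. They lie near the shares of all genes with a mean signal of at least 8, given above, and the median signal of the partners was 10.16. The deepest fall in K+-free medium was that of Maf1, the repressor of RNA polymerase III, with 8.69, 8.65 and 8.89 in K+-free medium, 8.83, 8.93 and 8.79 in ouabain and 10.24, 10.28 and 10.26 in control (-1.52 in K+-free medium and -1.41 in ouabain). Of the snRNA-activating complex, Snapc5 fell by 1.11 in K+-free medium and 1.12 in ouabain, and Snapc1 by 0.53 in K+-free medium and 0.86 in ouabain. TBP itself (Tbp) was at 0.23 in K+-free medium and rose by 0.36 in ouabain. The TFIIH helicase Ercc3 fell by 0.41 in K+-free medium and 0.55 in ouabain, while Ccnh and Mnat1, which form the TFIIH kinase with Cdk7, rose: Ccnh by 0.87 in K+-free medium and 0.55 in ouabain, and Mnat1 by 0.51 in K+-free medium and 0.29 in ouabain. Of the kinase partners of Mediator, Cdk19 fell by 0.37 in K+-free medium and 0.31 in ouabain, and cyclin C (Ccnc) fell in K+-free medium alone (-0.48, with 0.04 in ouabain).

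Among the 6 genes of P-TEFb, the kinase that starts elongation, and its inhibitors none fell, 2 rose in K+-free medium and 4 in ouabain. These rises are 33.3% and 66.7% of few genes, where 25.5% and 25.0% of genes of mean signal 8 or more rose. Cyclin T1 (Ccnt1) read 12.03 on each array of K+-free medium, 11.97, 11.87 and 11.97 in ouabain and 11.06, 11.08 and 11.09 in control, a rise of 0.95 in K+-free medium and 0.86 in ouabain. Hexim1, its inhibitor, rose by 0.43 in K+-free medium and 0.92 in ouabain, and Mepce, which caps the 7SK RNA of the inhibited form, rose in ouabain alone (0.74, with -0.12 in K+-free medium). Of the super elongation factors, Eaf1 rose by 1.29 in K+-free medium and 1.08 in ouabain. Ell rose by 0.96 in K+-free medium and 0.62 in ouabain, and Aff1 by 0.88 in K+-free medium and 0.87 in ouabain. The pausing factor Nelfe fell by 1.05 in K+-free medium and 1.03 in ouabain. Its partner Nelfb fell by 0.97 in K+-free medium and 0.77 in ouabain, and Supt5h, a subunit of the elongation factor DSIF, fell in K+-free medium (-0.67), with -0.25 in ouabain.

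Of the genes that act on the tail of RNA polymerase II or assemble it, the phosphatase gene Ctdp1 rose by 0.58 in K+-free medium and 0.90 in ouabain, while Rpap2 fell by 0.61 in K+-free medium and 0.62 in ouabain. Gpn3, which helps the enzyme into the nucleus, fell by 0.73 in K+-free medium and 0.32 in ouabain. Cdc73 was the gene of the PAF elongation complex to rise, by 0.60 in K+-free medium and 0.70 in ouabain. In mitochondrial transcription, Tefm, an elongation factor, fell by 0.91 in K+-free medium and 1.53 in ouabain, and Tfb1m, a methyltransferase of ribosomal RNA, by 1.05 in K+-free medium and 1.23 in ouabain. Tfb2m, which works with Polrmt at promoters, rose in ouabain alone (0.58, with -0.05 in K+-free medium).

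The members that rose in both treatments had longer genes in RefSeq (median span 23 kb, 3.92 to 91.2 kb) than those that fell in both (13.0 kb, 0.885 to 68.1 kb), with ranges that overlapped, and a higher median signal (10.04 against 8.54). Among members called in 1 treatment alone, the order of spans was reversed. In K+-free medium the median was 8.85 kb for 2 rises and 21.1 kb for 12 falls. In ouabain it was 7.34 kb for 6 rises and 12.0 kb for 5 falls. Across the 85 members, the change correlated with mean signal at r = 0.29 (rho 0.34) in K+-free medium and r = 0.30 (rho 0.37) in ouabain, where all genes gave -0.03 (rho -0.10) in K+-free medium and -0.05 (rho -0.11) in ouabain. With the logarithm of gene span r was 0.21 (rho 0.13) in K+-free medium and 0.12 (rho 0.07) in ouabain over the members. Over 14299 genes it was -0.01 (rho 0.03) in K+-free medium and -0.04 (rho -0.01) in ouabain. Mean signal was taken over all 9 arrays, the treated ones included, so a rise lifts it and a fall lowers it. The gap in signal between the groups and the correlations with signal are thus partly built in, and their remainder was not measured. These correlations run across genes that share the same 9 arrays, so they are descriptions, and the brightness of a probe set depends on its probes as well as on its gene.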

How the data were processed

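The log2 values of 27342 probe sets on 9 arrays were made by the authors with RMA, per the labels, which also name Partek (no versions are given in the sources used here). The study's methods name MAS5 and GeneSpring in a general section too. RMA corrects background, normalizes arrays to 1 distribution by quantiles and summarises probes, which can compress changes of dim probe sets and hides a change in total RNA. Probe sets were named from the platform annotation: 15097 carried 1 symbol, 323 several and 11922 none, and the last 2 kinds named no gene here. All members matched RefSeq.

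limma 3.58.1 in R 4.3.3 was fitted to all 9 arrays with 1 mean per condition and no filter on low values. P-values were adjusted over all probe sets by Benjamini-Hochberg, and calls required both a limma adjusted p below 0.05 and a fold of more than 1.2. On simulated data with 200 changed probe sets, 191 were recovered with 6 false calls. The planted changes were 1.5-fold or more and far fewer than the calls made here, so recovery of smaller changes was not simulated. A fold limit of 1.5 removes 22 of the 54 member calls in K+-free medium, 24 of 51 in ouabain and 28 of 33 between treatments. Tables and figures were made with pandas 2.3.3 and matplotlib 3.10.9.

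The members and the partner and marker lists were chosen with earlier results of these data known. The rule for named genes took the largest subunits, the 10 largest called rises and falls of each contrast whose arrays do not overlap, up to 3 called members of each complex and of each partner list, and paralog pairs. It named 60 members, and the other members and partners in the text were added after their values were seen. Replicates are independent experiments. Alternatives tried were a stricter fold limit (1.5), each array left out, a replicate block, other tests and probe set filters, a second quantile normalization, and centring by B2m, by reference genes or by array medians. The t-test with unadjusted p-values and the split at a mean signal of 8 were chosen after seeing the data. Proteins were not analysed here. Gene span is that of RefSeq.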

Additional observations from a re-analysis of the deposited data

How the results depend on the processing

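No member changed its direction while called under any alternative. With B2m centring, 10 members rose in K+-free medium and 13 in ouabain. B2m centring moves the median of all probe sets to -0.10 in K+-free medium and -0.08 in ouabain, against 0.06 and 0.07 as deposited, and the calls over all probe sets then number 2375 rises and 7059 falls in K+-free medium, with 2166 and 6223 in ouabain. A fold limit of 1.5 left 7 rises and 25 falls in K+-free medium, 6 rises in ouabain, and between the treatments 2 members higher and 3 lower in K+-free medium. The methods' t-test with adjusted p-values left 8 and 11 there; with unadjusted p-values it gave 16 and 36 in K+-free medium, 20 and 31 in ouabain, and 16 and 18 between them.

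Median changes in K+-free medium under repeated quantile normalization were -0.02 for polymerases, -0.06 for general factors and -0.37 for Mediator. With B2m centring they were -0.28, -0.41 and -0.64, and -0.21 for TAFs, and with centring on reference genes -0.32 for general factors and -0.54 for Mediator. In ouabain, repeated quantile normalization gave 0.10 for polymerases, 0.02 for TAFs and -0.10 for Mediator, B2m centring gave -0.15, -0.22 and -0.36, and reference genes gave -0.25 for Mediator. General factors in ouabain were at -0.21 after repeated quantile normalization and -0.29 with B2m centring.

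Leaving out each array in turn gave 15 to 18 rises and 36 to 38 falls in K+-free medium, 18 to 20 rises and 30 to 32 falls in ouabain, and 14 to 17 higher and 17 to 19 lower between treatments. The medians in K+-free medium ranged from -0.17 to -0.11 for polymerases, -0.32 to -0.16 for general factors, -0.09 to -0.01 for TAFs and -0.49 to -0.44 for Mediator. In ouabain they ranged from -0.01 to 0.06, -0.20 to -0.11, -0.12 to -0.03 and -0.23 to -0.16, and for K+-free medium minus ouabain from -0.22 to -0.11, -0.02 to 0.09, -0.01 to 0.08 and -0.01 to 0.00. The causes of these shifts were not tested.

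Conditions were run side by side within each experiment, but the labels do not say that a replicate number marks an experiment, so the numbers were not taken as pairs. Deviations of same-numbered arrays correlated at -0.046 to 0.309 over 9 pairs, of which 4 were over 0.1, and those of differently numbered arrays at -0.284 to 0.163 over 18 pairs, of which 1 was. Control replicate 1 correlated best with ouabain replicate 2 (0.163). With the replicate number as a block, all 54 calls in K+-free medium and 51 in ouabain were kept, and between treatments 33 were kept and Taf9b was added (-0.27, limma adjusted p = 0.0312). The values carry no detection call, and 15 members lay under a mean signal of 8.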

Other observations

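A pair of probe sets carry a symbol of the same kind beside that of another gene and were left out of the members. The probe set of Mpv17 and Gtf3c2, a TFIIIC subunit, read 8.59, 8.42 and 8.60 in K+-free medium, 8.97, 9.09 and 9.07 in ouabain and 9.63, 9.60 and 9.63 in control. It fell by 1.08 in K+-free medium and 0.58 in ouabain, and the arrays of all conditions were separate. The probe set of Ak6 and Taf9 averaged 9.34 ± 0.111 in K+-free medium, 9.33 ± 0.0375 in ouabain and 9.12 ± 0.0854 in control (SD, n = 3 each), and its changes of 0.22 and 0.21 were below the fold limit. Which of the paired genes gives the signal cannot be told apart.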
